A study of Mus musculus with 9 samples.

Results

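Mitochondrial ribosomal protein genes are nuclear genes whose mRNAs are translated in the cytoplasm and whose products are imported into mitochondria, where they assemble with mitochondrially encoded rRNAs into the mitoribosome. The members were all genes with a symbol of Mrpl or Mrps followed by a number, pseudogenes left out. There were 78 of them among the 54325 gene symbols of the deposited table, 49 named for the large subunit (Mrpl) and 29 for the small subunit (Mrps). All 78 were found in GENCODE M21. The libraries came from RIP-seq of N2A cells, a mouse neuroblastoma line (Neuro-2A), all treated with 200 nM okadaic acid for 2 h. Okadaic acid inhibits protein phosphatases and so keeps UPF1 phosphorylated. There were 3 libraries of input RNA (Input), 3 of RNA recovered with control rabbit IgG (rIgG IP) and 3 of RNA recovered with antibody to phosphorylated UPF1 (p-UPF1 IP). Input RNA and recovered RNA were cleaved by RNase I, and fragments of 25 to 50 nt were sequenced from all 3 groups. No library was of cells without okadaic acid, and nothing in the labels says whether the 3 libraries of a group came from separate cultures, so that the p-values measure a spread between libraries that may be technical.

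The mitoribosome translates the mRNAs that mitochondrial DNA encodes, all of them for membrane subunits of oxidative phosphorylation (OXPHOS). Its large subunit carries the peptidyl transferase centre and its small subunit decodes the mRNA, and both hold proteins with bacterial relatives beside proteins particular to mitochondria. Nonsense-mediated mRNA decay (NMD) begins when UPF1 on an mRNA is phosphorylated, typically after translation stops well upstream of an exon-exon junction or ahead of a long 3′ UTR, and the p-UPF1 IP was made to recover such mRNAs. The question put to the members is therefore which of them were over- or under-represented in the p-UPF1 IP.

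Total counts were 25184464 to 29857955 in Input, 5312526 to 6246110 in the p-UPF1 IP and 79010 to 474491 in the rIgG IP. The 10 most-counted transcripts took 72.5% to 81.3% of the counts of each library, and the members together took 0.0382% ± 0.000763 (SD, n = 3) of Input, 0.0289% ± 0.00128 of the p-UPF1 IP and 0.0289% ± 0.00474 of the rIgG IP. In the rIgG IP these shares stood for 159, 60 and 19 counts over all 78 members. Hand2, a regulator of noradrenergic neuroblastoma cells, was at 294 to 300 counts in the Input libraries, and Th and Dbh, enzymes of catecholamine synthesis, were at 17 to 23 and 3 to 13 counts. These genes were chosen after their values were seen.

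Most mitochondrial ribosomal protein genes were under-represented in the p-UPF1 IP. Over Input, 63 of the 78 were lower and 5 were higher at an adjusted p under 0.05 by edgeR's quasi-likelihood test, and 10 did not pass in either direction. Of all 16919 genes tested, 35.7% were lower and 26.3% were higher, so the share of members that were lower (80.8%) was above the background and the share that were higher (6.41%) below it. At a log2 fold change beyond 1 in size, the threshold the study used for RIP-seq, 50 members were depleted against 26.5% of all genes, and 2 were enriched against 17.2%. The median log2 fold change of the members was -1.38, and that of all genes tested was -0.42. Scaling by library totals in place of TMM moved the median of all genes to -0.01, which turned the split of all calls from 4445 higher and 6044 lower into 5709 and 4363, and it moved the members to 10 higher and 53 lower. The members' median differed from that of all genes by a log2 value of -0.96, which a change of scaling leaves in place because it shifts all genes alike. With no filter on low counts, which added genes with few counts, the median of all genes was -1.42 and the members' median differed from it by -0.0351. Under that setting 66 members were lower, against 20.5% of all genes. With the stricter filterByExpr of edgeR, the median was -1.34 for the members and -0.11 for all genes, a difference of -1.22.

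**Figure D1:**
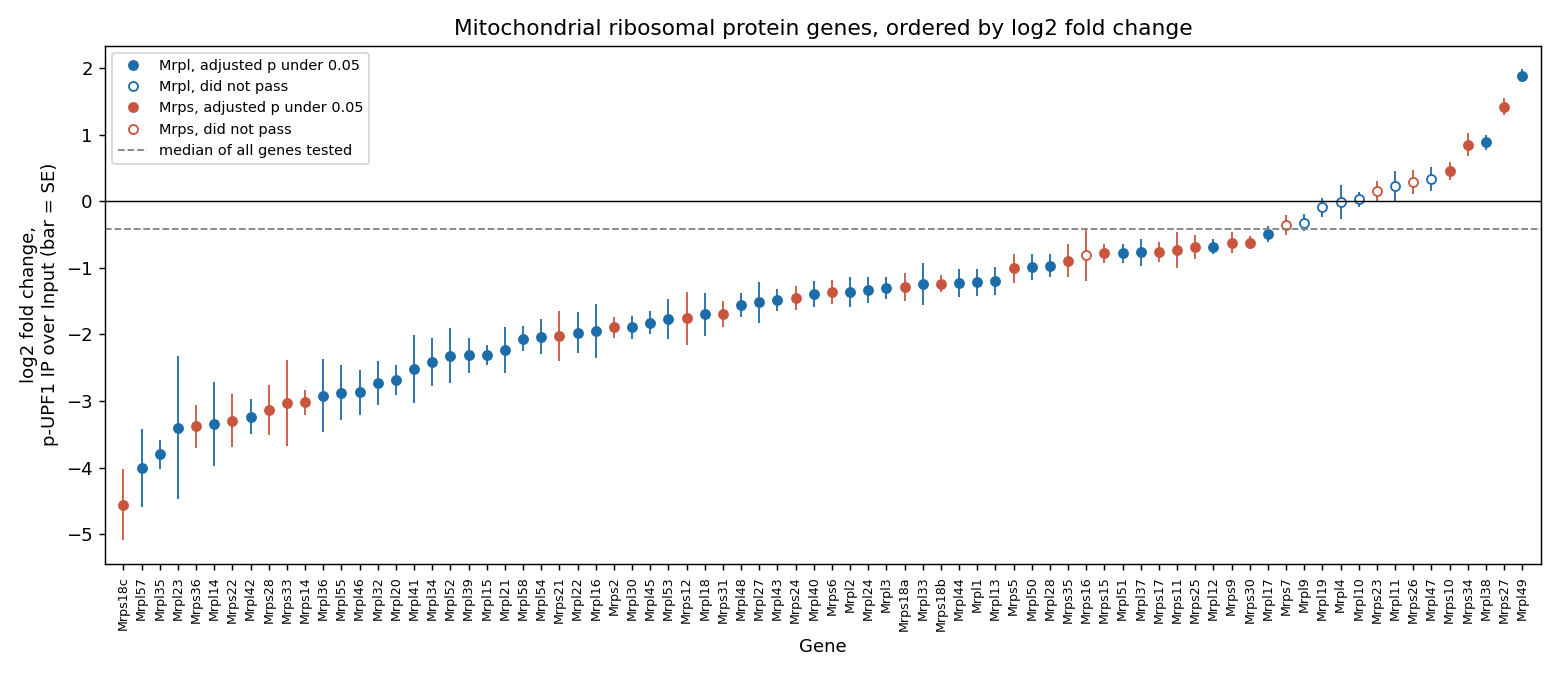
Log2 fold change of each of the 78 mitochondrial ribosomal protein genes in the p-UPF1 IP over Input (vertical axis, bars are SE from the fit on 3 against 3 libraries), ordered from lowest to highest; filled points passed an adjusted p of 0.05 and open points did not. The values run from -4.56 for Mrps18c to 1.89 for Mrpl49, and 64 of the 78 lie below the dashed line, the median of all genes tested.

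The genes of both subunits were mostly lower. Among the Mrpl genes, 41 of 49 were lower and 2 were higher (median log2 fold change -1.55). Among the Mrps genes, 22 of 29 were lower and 3 were higher (median -1.0). The 2 medians are given as a description, and their difference was not tested. Of the 63 members that were lower, 25 were more than 4-fold lower and 11 more than 8-fold lower. In 62 of the 63, every p-UPF1 IP library was below every Input library, and the exception was Mrpl23. These counts by fold and overlap were not made over all genes. They describe the called members and do not set them apart from other genes called lower. The 10 that did not pass were Mrpl4, Mrpl9, Mrpl10, Mrpl11, Mrpl19, Mrpl47, Mrps7, Mrps16, Mrps23 and Mrps26, with log2 fold changes from -0.81 to 0.34.

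Mrpl49, a large-subunit protein, was the member highest in the p-UPF1 IP (gene ENSMUSG00000007338.10, GRCm38 chr19:6053622-6057785, minus strand). It was at 5.82, 5.67 and 5.79 CPM in the Input libraries and at 21.3, 19.2 and 23.4 CPM in the p-UPF1 IP libraries, where CPM is the count per 1000000 counts of the TMM-scaled library. Each p-UPF1 IP library was thus well above all Input libraries. The log2 fold change was 1.89 ± 0.10 (SE), a 3.69-fold difference (adjusted p = 7.13e-08). Mrpl49 and Mrps7 stand in the study's list of NMD targets, which was chosen partly on these libraries, so their values here are not independent evidence of that choice. The list also required higher RNA after UPF1 knockdown, and the study quantified its RIP-seq by transcript. The gene sums here are thus another measure than the one behind the list.

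The sequences at the exon junctions of Mrpl49 are shown because its counts moved between transcripts that differ at them. The annotated 4-exon transcript, ENSMUST00000007482.7, joins exon 1 to exon 2 and exon 2 to exon 3. ENSMUST00000235520.1 lacks the 151 nt of exon 2 (chr19:6056929-6057079) and joins exon 1 to exon 3. In each line, lower case is the end of the upstream exon and capitals are the start of the downstream exon, written 5′ to 3′ in the sense of the mRNA and read from the GENCODE M21 transcript sequences (GRCm38).
Exon 1 to exon 2, ENSMUST00000007482.7: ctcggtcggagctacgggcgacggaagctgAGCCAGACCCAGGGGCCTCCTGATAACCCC
Exon 2 to exon 3, ENSMUST00000007482.7: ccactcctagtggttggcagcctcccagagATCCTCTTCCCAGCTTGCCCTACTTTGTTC
Exon 1 to exon 3, ENSMUST00000235520.1: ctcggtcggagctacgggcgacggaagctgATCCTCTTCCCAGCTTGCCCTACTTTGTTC
Since 151 is not a multiple of 3, leaving out the exon changes the reading frame. The 4-exon transcript has 166 codons before its stop codon and 1214 nt after it, with the stop in the last exon. The transcript without exon 2 has 56 codons before its stop, 1118 nt after it, and its stop lies 32 nt upstream of the last exon-exon junction. GENCODE classes it as protein-coding, not as an NMD transcript. The last 30 nt of each coding sequence follow, with the stop codon in capitals.
End of coding sequence, ENSMUST00000007482.7: aaagcctggcttcttgagaaaggcttcTGA
End of coding sequence, ENSMUST00000235520.1: aggagatcacacacggcaaccgacagaTGA

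The transcript without exon 2 was counted 0, 42 and 0 times across Input, against 110, 115 and 142 times after p-UPF1 IP, although the latter libraries were less deep. For the 4-exon transcript the Input values were 119, 74 and 137 counts, and those of the p-UPF1 IP 16, 25 and 24. Of the gene's counts, 10.4% fell on the transcript without exon 2 in Input and 85.0% in the p-UPF1 IP. Only 2.43% of the 35-nt windows of the transcript without exon 2 (31 windows) and 19.3% of those of the 4-exon transcript (334 windows) are unique within the gene. The split between them thus rests on few positions, no test was made of it, and the part that shared sequence played was not tested.

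**Figure D2:**
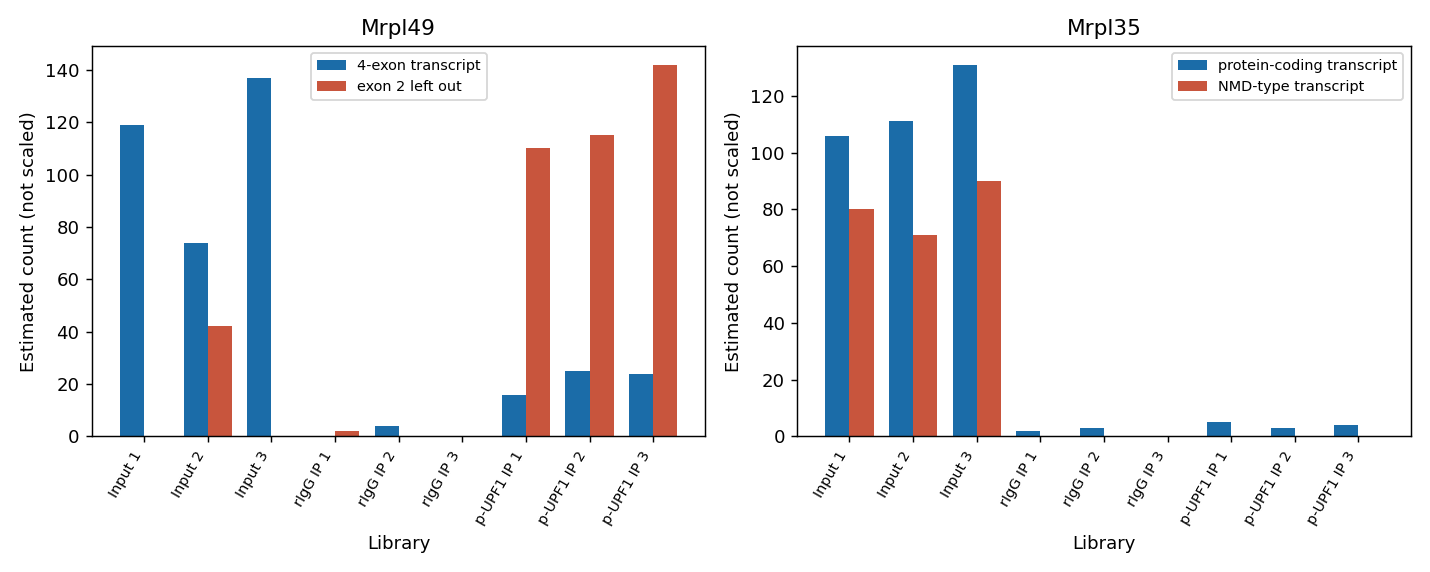
Estimated counts, not scaled for depth, of 2 transcripts each of Mrpl49 (left) and Mrpl35 (right) in the 9 libraries. The Mrpl49 transcript that leaves out exon 2 ranges over 0 to 42 counts for Input and 110 to 142 for p-UPF1 IP, while the NMD-type transcript of Mrpl35 ranges over 71 to 90 counts for Input and is at 0 in all p-UPF1 IP bars.

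The other 4 members that were higher over Input were Mrps27, Mrpl38, Mrps34 and Mrps10. Mrps27, a pentatricopeptide repeat protein of the small subunit, was at 6.87, 6.20 and 7.59 CPM in Input and at 18.3, 16.1 and 21.3 CPM in the p-UPF1 IP, a log2 fold change of 1.42 ± 0.12 (adjusted p = 3.34e-06). All of its counts in both groups fell on its full-length protein-coding transcript. Mrpl38, at 8.69 ± 0.297 CPM (SD, n = 3) in Input and 16.1 ± 2.46 CPM in the p-UPF1 IP, was 1.85-fold higher (adjusted p = 6.81e-05). Every Mrpl38 transcript with a count is annotated as retaining an intron, although the gene also has an annotated coding sequence of 1143 nt. One of 995 nt made up 7.36% of the gene's counts in Input and 20.0% in the p-UPF1 IP, and one of 241 nt 6.22% and 15.7%. These have 68.7% and 58.0% of their windows to themselves. The most-counted transcript, with 70.5% of the gene's Input counts, has only 8.91%. The lack of counts on a coding transcript may thus lie in how shared sequence was split, which was not tested.

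Mrps34 was at 3.52, 3.57 and 3.74 CPM in Input and at 7.29, 4.94 and 7.47 CPM in the p-UPF1 IP (log2 fold change 0.85 ± 0.17, adjusted p = 0.00157). In its most-counted transcript, 54.8% of the 35-nt windows lie in transcripts of other genes on the opposite strand, and the strand setting of the quantification is not given in the sources used here. Mrps10 was at 5.79 ± 0.272 CPM in Input and 7.96 ± 1.15 CPM in the p-UPF1 IP, a log2 fold change of 0.46 ± 0.13 (adjusted p = 0.0122), which was 0.37 and no longer past the threshold without the library p-UPF1 IP 2 (adjusted p = 0.0533). Its most-counted transcript shares 27.7% of its windows with other genes. None of the groups of these 4 genes overlapped.

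Mrps7, a small-subunit protein with a bacterial relative, was not told apart at the gene level. It was at 8.04, 7.19 and 8.84 CPM in Input and at 5.42, 5.76 and 7.61 CPM in the p-UPF1 IP, so that the groups overlapped, with a log2 fold change of -0.35 ± 0.15 (adjusted p = 0.0657). Its sign turned to 0.06 under library totals, and it passed the threshold as lower under 4 other settings. One of its transcripts, ENSMUST00000141556.1, annotated as processed and of 572 nt, was at 2, 0 and 2 counts for Input but 14, 17 and 14 for p-UPF1 IP. It made up 0.707% of the gene's Input counts and 35.2% of its p-UPF1 IP counts, and 26.4% of its windows are its own.

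At the other end of the order stood Mrps18c, Mrpl57, Mrpl35, Mrpl23, Mrps36, Mrpl14, Mrps22 and Mrpl42, the 8 members with the lowest log2 fold change. Mrpl35 is a large-subunit protein with a bacterial relative. It was at 8.08, 8.12 and 8.88 CPM in Input and at 0.847, 0.412 and 0.563 CPM in the p-UPF1 IP, a log2 fold change of -3.80 ± 0.22 or 13.9-fold lower (adjusted p = 1.64e-07). Both of its counted Input transcripts were low in the p-UPF1 IP. The protein-coding ENSMUST00000065103.3 went from Input values of 106, 111 and 131 counts to 5, 3 and 4 after p-UPF1 IP. ENSMUST00000205435.1, which GENCODE classes as an NMD transcript, had Input values of 80, 71 and 90 counts and was at 0 after all 3 p-UPF1 IPs.

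The ends of the coding sequences of these Mrpl35 transcripts are shown because an annotated NMD-type transcript would be the first place to look for p-UPF1. The gene lies at chr6:71812997-71826969 on the minus strand. The protein-coding transcript has 188 codons before its stop, in the last exon. In the NMD-type transcript, exon 1 is 247 nt long (chr6:71823517-71823763) and reaches into sequence that is intronic in the other, and the stop after 60 codons lies 394 nt upstream of the last exon-exon junction. Capitals mark the stop codon.
End of coding sequence, ENSMUST00000065103.3: taccacgatcgaacaaacctacgagtaTAG
End of coding sequence, ENSMUST00000205435.1: gtttgctgcgcgataccttgcacagtgTAG
Of the windows of the NMD-type transcript, 34.2% are unique within the gene.

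Mrps22, a small-subunit protein particular to mitochondria, was at 4.61, 4.91 and 5.14 CPM in Input and at 0, 0.823 and 0.563 CPM in the p-UPF1 IP (log2 fold change -3.29 ± 0.40, adjusted p = 4.23e-05). With any 1 library left out, its log2 fold change ran from -3.93 (without p-UPF1 IP 2) to -2.76. Mrpl42 was at 7.96 ± 1.64 CPM in Input and 0.837 ± 0.128 CPM in the p-UPF1 IP, 9.44-fold lower (adjusted p = 2.13e-06). Its main Input transcript, with 134, 135 and 224 counts, was at 0 in the p-UPF1 IP, where all counts fell on a transcript with 1 window of its own.

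The remaining 5 of the 8 had at most 3 counts in every p-UPF1 IP library, so that their folds are given as ratios of pooled counts, scaled for library size, with exact 95% intervals that cover counting error only. For Mrps18c, 177 counts in Input stood against 2 in the p-UPF1 IP, a ratio of 25.5 (6.97 to 213). Mrpl57 had 121 against 2 counts and a ratio of 17.5 (4.73 to 146). Mrps36, which despite its symbol is a component of the 2-oxoglutarate dehydrogenase complex, had 222 against 6 counts and a ratio of 10.7 (4.83 to 29.4).

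Mrpl14 had 112 against 3 counts, a ratio of 10.8 (3.59 to 53.0). Mrpl23, a protein of the exit tunnel, gave Input counts of 64, 8 and 83 against 3, 1 and 0 after p-UPF1 IP, so that Input 2 stood far below the other 2 and overlapped the p-UPF1 IP libraries. Its ratio was 11.2 (4.28 to 41.6). Its adjusted p of 0.0194 rose to 0.0746 and 0.0787 without p-UPF1 IP 2 and 3. Of its most-counted transcript, 85.3% of windows occur in transcripts of other genes, and the part of this in the low Input 2 count was not tested.

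**Figure D3:**
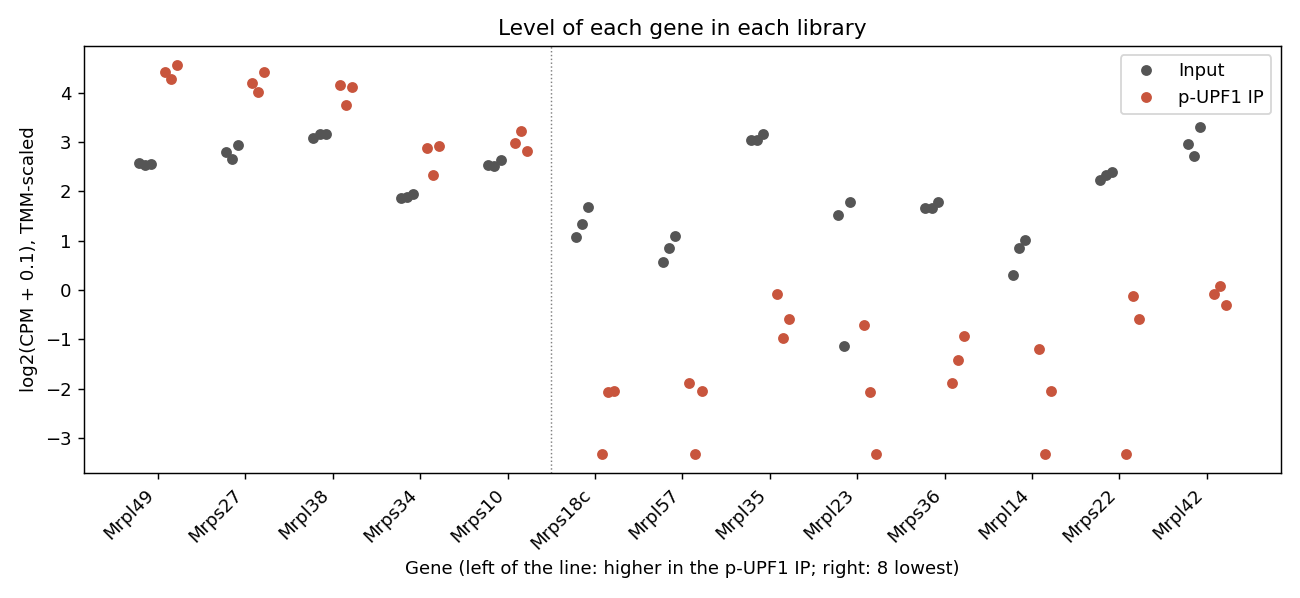
Level of the 5 members that were higher in the p-UPF1 IP (left of the dotted line) and of the 8 lowest members (right) in each Input and p-UPF1 IP library, as log2(CPM + 0.1) after TMM scaling; each point is 1 library. The groups do not overlap for any of the 13 genes but Mrpl23, whose Input 2 library (0.357 CPM) lies below 1 p-UPF1 IP library.

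The paralogs Mrps18a, Mrps18b and Mrps18c, all related to the same bacterial small-subunit protein, were all lower. Mrps18a, which sits in the large subunit despite its symbol, was at 5.87, 5.31 and 6.87 CPM in Input and at 2.20, 1.92 and 3.24 CPM in the p-UPF1 IP (log2 fold change -1.29 ± 0.21, adjusted p = 0.000364). Mrps18b was at 8.74, 8.75 and 9.72 CPM and at 3.90, 3.57 and 4.09 CPM (-1.24 ± 0.13, adjusted p = 1.32e-05). Mrps18c, with the log2 fold change of -4.56 ± 0.53 (adjusted p = 3.20e-05), was the lowest of the 3 and of all members. In its most-counted transcript 25.9% of windows are shared with other genes, and in that of Mrps18b 33.3%. Of the windows of that Mrps18b transcript, 55.0% also lie in transcripts of other genes on the opposite strand.

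The members most counted in Input were also lower, by unequal amounts. Of the large subunit these were Mrpl15 (14.6 ± 0.283 CPM in Input, SD, n = 3), Mrpl30 (12.3 ± 0.773 CPM) and Mrpl12 (11.9 ± 0.670 CPM), the last a protein of the stalk that binds translation factors. Their log2 fold changes were -2.31 ± 0.15 for Mrpl15, -1.89 ± 0.17 for Mrpl30 and -0.68 ± 0.11 for Mrpl12. Of the Mrps genes they were Mrps30 (13.9 ± 1.01 CPM), which also sits in the large subunit, Mrps2 (10.5 ± 0.759 CPM) and Mrps9 (9.82 ± 0.623 CPM), and their log2 fold changes were -0.62 ± 0.10, -1.89 ± 0.15 and -0.62 ± 0.16. At adjusted p-values from 4.40e-07 (Mrpl15) to 0.00698 (Mrps9), all 6 passed, but under library totals Mrpl12, Mrps30 and Mrps9 no longer did. Mrpl17, a large-subunit protein at the edge of the called members, had a log2 fold change of -0.49 ± 0.12 (adjusted p = 0.00419) and likewise did not pass under library totals.

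The level of the members was compared per length in Input, as CPM per kb summed over the transcripts of a gene. It ran from 1.73 ± 0.454 CPM per kb for Mrps12, a decoding-centre protein, to 19.5 ± 3.99 CPM per kb for Mrpl58, a peptidyl-tRNA hydrolase that rescues stalled mitoribosomes. Each count was divided by the length of its own transcript, so counts put on short transcripts raise the level. The most-counted transcript of Mrpl58 is a retained-intron one of 534 nt, and its gene CPM in Input (9.47) was below that of Mrpl15 (14.6). The median was 4.78 CPM per kb, and 8 in 10 members lay between 2.40 and 8.69 CPM per kb, the 10th and 90th percentiles. Mrpl58 and the next, Mrpl30 (15.9 ± 4.97), differed by less than their SDs, as did Mrps12 and Mrpl19 (1.78 ± 0.397). The medians of the Mrpl genes (4.53 CPM per kb) and the Mrps genes (4.91 CPM per kb) lay close together.

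The shares of 3 transcript classes of the members did not overlap between Input and the p-UPF1 IP. Retained-intron transcripts, 76 of which had a count, took 9.54% to 11.3% of the members' counts in the Input libraries and 15.1% to 15.7% in the p-UPF1 IP libraries. In the rIgG IP they took 10.5% to 20.0%, a range that includes the p-UPF1 IP values. Mrpl38, all of whose counts fell in this class, held 192, 198 and 221 of its 1015, 901 and 1311 Input counts. In the p-UPF1 IP libraries it held 105, 97 and 123 of 228, 268 and 293. Much of the shift in this class thus came from 1 gene, and the shares without it are not given. Transcripts that GENCODE classes as NMD transcripts, 19 in 17 genes, took 4.21% to 5.13% in Input and 2.09% to 2.87% in the p-UPF1 IP. Their share of the few rIgG IP counts was 3.33% to 10.5%. Transcripts classed as processed took 7.20% to 8.64% in Input, 3.96% to 6.37% in the p-UPF1 IP and 14.5% to 18.3% in the rIgG IP. Protein-coding transcripts held 75% to 78.8% and 75.7% to 78.3%. These are shares of counts that Salmon split between overlapping transcripts and have no test. The same shares were not computed over all genes, so whether the shifts are particular to the members was not tested.

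Single NMD-class transcripts went both ways. Of the 11 with at least 20 summed Input counts, 5 were at 0 in all p-UPF1 IP libraries. They included that of Mrpl35 and ENSMUST00000176158.1 of Mrpl17, which had 89, 96 and 95 counts in Input and of whose windows only 3.95% are its own. The NMD-class transcript of Mrps14, ENSMUST00000078878.13, showed the opposite, being at 0 in all Input libraries and at 5, 7 and 6 counts after p-UPF1 IP, but it was also at 2, 2 and 1 counts in the shallower rIgG IP libraries and has 8.75% of its windows to itself, while the gene as a whole was 8.12-fold lower (log2 fold change -3.02 ± 0.18, adjusted p = 2.53e-07). That of Mrps34, ENSMUST00000154236.1, was at 22, 0 and 19 Input counts and at 6, 7 and 11 after p-UPF1 IP, with 52.6% of windows its own. In Mrps30, a retained-intron transcript held 5.50% of the gene's counts in Input and 45.7% in the p-UPF1 IP, from 12, 17 and 25 Input counts against 20, 37 and 27 after p-UPF1 IP.

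Short coding sequences went with lower values. By the longest coding sequence annotated for each gene, the 13 members under 400 nt were all lower, with a median log2 fold change of -2.32. The 27 members from 400 to under 600 nt had a median of -1.70 (23 lower, 1 higher), the 23 from 600 to under 900 nt -0.97 (14 lower, 2 higher) and the 15 of 900 nt or more -1.22 (13 lower, 2 higher). Among all 12798 tested genes with a coding transcript, the medians of the same classes were -1.69, -0.90, -0.38 and -0.04, and 58.9%, 51.7%, 40.1% and 32.5% of their genes were lower. In each length class the members' median was thus below that of all genes. Across the 78 members, Spearman's rho between coding length and log2 fold change was 0.41, and across all tested genes 0.22, where genes share libraries and are not independent replicates. With GC content of the most-counted transcript, rho was 0.16 across the members and 0.42 across all genes.

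**Figure D4:**
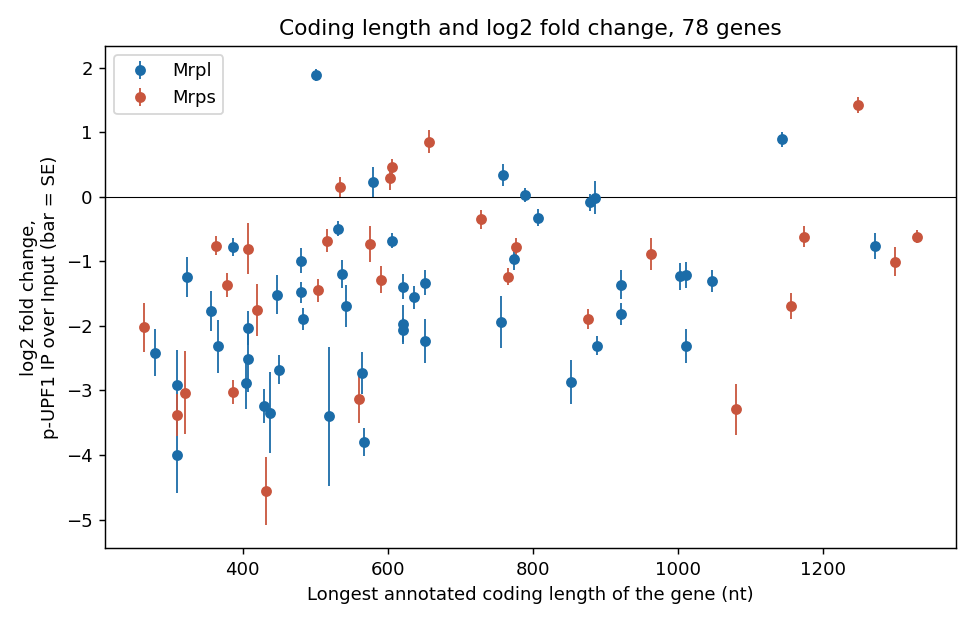
Log2 fold change in the p-UPF1 IP over Input (bars are SE) against the longest annotated coding length of each of the 78 genes, in nt. The 13 genes under 400 nt all lie below 0, while the 5 genes that were higher have coding lengths of 501 nt (Mrpl49) and more.

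The other genes of mitochondrial translation did not show the members' pattern throughout. Of 5 mitoribosomal proteins whose symbols do not begin with Mrp, 3 were higher and 1 was lower over Input. Gadd45gip1, a large-subunit protein, rose from 3.25 ± 0.287 CPM to 15.8 ± 1.24 CPM (SD, n = 3), a log2 fold change of 2.28 ± 0.12 (adjusted p = 7.13e-08), above that of every Mrp gene. Dap3, a GTP-binding small-subunit protein, had a log2 fold change of 1.06 ± 0.09 and Ptcd3, a pentatricopeptide repeat protein, 0.23 ± 0.09, the latter past the threshold (adjusted p = 0.0401) but not with DESeq2, no filter or the replicate block, nor without Input 1, Input 2 or p-UPF1 IP 3. Chchd1 was lower (-1.83 ± 0.36), and Aurkaip1, at 0.04 ± 0.14, did not pass.

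Of 24 genes for mitoribosome assembly and rRNA modification, 7 were higher (29.2%) and 10 were lower (41.7%), with a median log2 fold change of -0.33, shares near the 26.3% and 35.7% of all genes. The rRNA methyltransferase Mrm1 was at 2.91 ± 0.435 CPM in Input and 18.8 ± 3.75 CPM in the p-UPF1 IP, a log2 fold change of 2.67 ± 0.16. Mettl17 (2.63 ± 0.23) and Ybey (1.85 ± 0.26) were also higher, while Mterf3 was lower (-2.24 ± 0.18). Of 15 translation factors and mRNA-handling proteins, 4 were higher (26.7%) and 6 lower (40%), also near those of all genes (median -0.36). The initiation factor Mtif3 (1.57 ± 0.20) and the release factor Mtrf1l (1.51 ± 0.24) were higher, and Lrpprc (-1.64 ± 0.09) and Slirp (-4.13 ± 0.36), partners that stabilise mitochondrial mRNAs, were lower. All values in this paragraph but the CPM are log2 fold changes with SE, and each passed an adjusted p of 0.05.

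Cytoplasmic ribosomal protein genes and OXPHOS subunit genes had lower medians than the members. Of 78 tested cytoplasmic ribosomal protein genes, 72 were lower and 4 higher, with a median log2 fold change of -2.70. Of 81 tested nuclear-encoded OXPHOS subunit genes, 78 were lower and none was higher, with a median of -2.69. The members' median of -1.38 lay between these and the -0.42 of all genes. Median coding lengths were 585 nt for the members, 458 nt for cytoplasmic ribosomal proteins and 408 nt for OXPHOS subunits. No test was made between the groups.

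**Figure D5:**
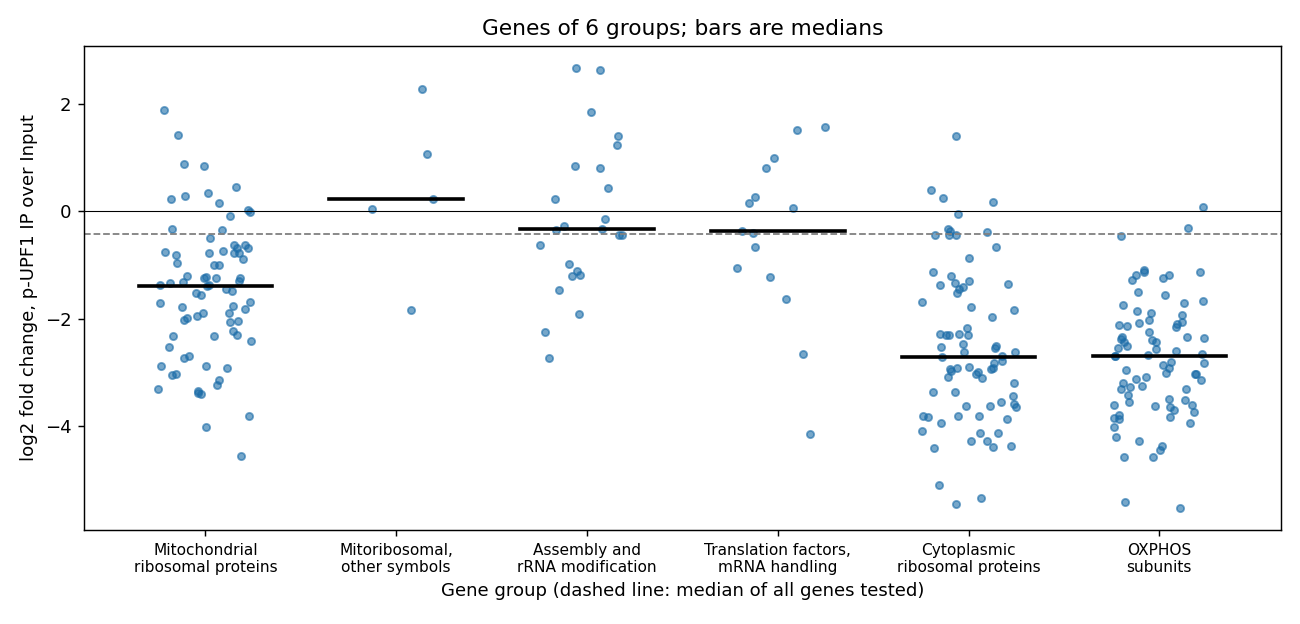
Log2 fold change in the p-UPF1 IP over Input of the genes of 6 groups, each point a gene and each bar a group median; the dashed line is the median of all genes tested. The medians run from -2.70 for cytoplasmic ribosomal proteins and -2.69 for OXPHOS subunits through -1.38 for the mitochondrial ribosomal proteins to 0.23 for the 5 mitoribosomal proteins with other symbols.

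Over the rIgG IP, the comparison that takes out RNA sticking to beads and antibody, few members could be called. With a summed count under 10, 11 members were not tested, namely Mrpl14, Mrpl21, Mrpl23, Mrpl36, Mrpl41, Mrpl55, Mrpl57, Mrps12, Mrps18c, Mrps33 and Mrps36. Of the 67 tested, 2 were higher in the p-UPF1 IP, against 18.5% of the 12033 genes tested, and 6 were lower, against 5.56%. The share of members that were higher (2.99%) was below the background, and the share that were lower (8.96%) was near it. With RLE factors the counts were 1 higher and 7 lower, against 12.5% and 6.97% of all genes. The median log2 fold change of the members was -0.12 and that of all genes 0.91, and they were 0.47 and 1.60 without rIgG IP 1 and 1.01 and 1.67 with limma. Among the other mitochondrial translation genes named above, Mrm1, Gadd45gip1, Dap3 and Ybey were higher over the rIgG IP by edgeR (adjusted p = 0.000452, 0.00435, 0.0216 and 0.0318). Mrm1 and Ybey had 0 counts in every rIgG IP library. Mettl17, Mtif3, Mtrf1l, Ptcd3, Aurkaip1, Chchd1, Mterf3, Lrpprc and Slirp did not pass.

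Mrps27 was counted 2, 1 and 0 times after rIgG IP against 108, 117 and 151 times after p-UPF1 IP, a log2 fold change of 2.50 ± 0.63 (adjusted p = 0.00443). Mrpl49 had 2, 4 and 1 counts and 126, 140 and 166 counts (1.48 ± 0.48, adjusted p = 0.0262), and it no longer passed under RLE factors, DESeq2, filterByExpr, all 9 libraries, the replicate block or limma, or without rIgG IP 1 or 3. Its log2 fold change was 0.83 without rIgG IP 1 and 2.11 without rIgG IP 2. Mrps27 still passed with the replicate block but not with limma. These were the members that were also enriched over Input, a comparison that shares the p-UPF1 IP libraries.

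The members that were lower over the rIgG IP were Mrpl35, Mrpl46, Mrpl42, Mrps14, Mrps24 and Mrpl58. Mrpl35 had 6, 3 and 0 counts in the rIgG IP against 5, 3 and 4 in the far deeper p-UPF1 IP libraries (log2 fold change -3.90 ± 0.81, adjusted p = 0.000781). Mrpl46 had 4, 0 and 1 counts against 2, 3 and 8 (-2.98 ± 1.01, adjusted p = 0.0322). Mrpl42 had 5, 1 and 0 against 5, 7 and 5 (-2.84 ± 0.86, adjusted p = 0.0168), and Mrps14 had 2, 2 and 1 against 7, 8 and 8 (-2.24 ± 0.82, adjusted p = 0.0489). These 6 members had 5 to 9 rIgG IP counts each over the 3 libraries. Without rIgG IP 1, the deepest of the 3, none of them passed, with log2 fold changes from -3.49 (Mrpl35) to -1.07 (Mrpl58). With the replicate block only Mrpl35 of the 6 passed, and Mrps14 did not pass once any 1 of the 6 libraries was left out.

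In the rIgG IP over Input, 0 of 78 members were higher and 0 were lower by edgeR, against 0.584% and 0.313% of the 16280 genes tested. At an unadjusted p under 0.05 there were 10 members. DESeq2 also called 0, while limma called 12 of the 78 lower, with 32.5% of all genes lower under the same test. The median log2 fold change of the members was -0.62 and that of all genes -0.84. A member had a median of 3 counts summed over the 3 rIgG IP libraries and at most 9, and 12 members had none, which allows up to 6.32 to 38 CPM per library (3 counts of the total, counting error only). With the libraries of each group pooled, none of the 12 had a p-UPF1 IP level above 3 rIgG IP counts, the highest ratio being 0.957. The lowest unadjusted p among them over the rIgG IP was 0.0228 by edgeR, with an adjusted p of 0.0797. For these members no difference from the rIgG IP was thus established at this depth.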

How the data were processed

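RIP-seq was made from N2A cells treated with okadaic acid, as 3 Input, 3 rIgG IP and 3 p-UPF1 IP libraries of 25 to 50-nt fragments. The deposited values are the authors' estimated counts of each transcript, all whole numbers and not scaled. Per the submitters' processing notes, bcl2fastq 2.19.0, STAR 2.7.0f, Salmon 0.13.1, DESeq2 1.22.1 and R 3.5.1 were used with GRCm38.p6. The strand setting of the quantification is not given in the sources used here.

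Counts were summed per gene symbol, and genes with a summed count of at least 10 over the 6 libraries compared were fitted with edgeR 4.0.16 (TMM factors, quasi-likelihood test) in R 4.3.3. P-values were adjusted by Benjamini-Hochberg over all genes tested, with 0.05 as the threshold, and SE is the log2 fold change divided by the square root of F. The members and lists were chosen with earlier results of these data known. Members were named by a rule: the 8 highest and 8 lowest log2 fold changes over Input among those past the threshold, the 3 of each subunit most counted in Input, up to 4 in each direction called in the other comparisons, Mrpl49 and Mrps7 from the study's table of NMD targets, and the Mrps18 paralogs; Mrps24 and Mrpl58, outside it, were named after their values were seen. Transcript classes, coding lengths and sequences came from GENCODE M21 (GRCm38), an earlier release than the study names for its mapping. Of the 140658 transcripts counted, 139921 were found in it. The 35-nt windows found in 1 transcript of a gene were counted as its own. Alternatives were RLE factors, library totals, DESeq2 1.42.0, limma 3.58.1, filterByExpr, no filter, all 9 libraries, a replicate block, leaving out the 10 most-counted transcripts, and leaving out each library. The scripts were tested on simulated data. The fits did not pair libraries by replicate number, apart from the replicate block. Deviations of same-numbered libraries had correlations from -0.0309 to 0.0509, which cannot tell whether those libraries share a culture. Intervals and floors cover counting error only. Some cell type markers are not reported here.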

Additional observations from a re-analysis of the deposited data

How the results depend on the processing

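For the p-UPF1 IP over Input, the number of members that were lower stayed between 53 (library totals) and 66 (replicate block) under the other normalizations, filters, tests and sample choices, and between 62 and 63 with any library left out. Of all genes, 25.8% were lower under library totals, 33.8% with the replicate block and 31.9% to 36.3% with a library left out. The number that were higher was 10 under library totals, 4 to 6 with a library left out, and 5 with the replicate block. The shares of all genes that were higher under these were 33.7%, 25.3% to 27.2%, and 25.6%. With no filter, the median log2 fold change of all genes was -1.42 and the members' median differed from it by -0.0351. With filterByExpr, the members' median differed from that of all genes by -1.22. The sign turned for Mrps7 under library totals (0.059), and for Aurkaip1 with no filter (-0.037) and with single libraries left out (-0.075 to 0.19, the lowest without p-UPF1 IP replicate 2). None of these values passed the threshold. Over the rIgG IP, members that were higher numbered 1 under RLE factors, DESeq2, filterByExpr, all 9 libraries and the replicate block, 7 with limma (26.1% of all genes were higher under that test), and 1 to 2 with a library left out. Those that were lower numbered 1 under filterByExpr and under the replicate block, 2 with limma, and 0 to 5 with a library left out (0 without rIgG IP replicate 1, and 3 without rIgG IP replicate 2). Of all genes, 9.76% were lower under filterByExpr, 3.56% under the replicate block, 2.87% with limma and 2.61% to 6.06% with a library left out. In the rIgG IP over Input, limma called 12 lower where edgeR called 0, and it called 32.5% of all genes lower. Replicate numbers are not stated to mark a shared culture or day, and the correlations under the pairing check were near 0. An alternative chosen after seeing the data left out 16 of the 78 members. In these, the most-counted transcript shares over 20% of its windows with other genes in the same orientation. It gave 4 higher and 49 lower over Input, where 26.3% and 35.7% of all genes were higher and lower. The cause of these changes was not tested. The depth of the rIgG IP libraries limits every comparison with them.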
